A study of Mus musculus with 8 samples.

Results

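Hypoxia was compared with normoxia in BV2 cells, a mouse microglial line, that had been grown together with GL261 cells, a mouse glioma line. The comparison used 4 of the 8 ATAC-seq libraries of the series, 2 biological replicates from co-culture at 21% oxygen and 2 from co-culture below 0.1% oxygen. BV2 cells were seeded onto GL261 cells at 1 BV2 cell to 2 GL261 cells, kept together for 24 h and then held for a further 16 h at either oxygen level. They were fixed with 1% formaldehyde for 10 min (in the hypoxic group before return to air) and sorted by the protocol as CD45+ or GFP+ cells (CD45 is the leukocyte surface protein encoded by Ptprc), and 50000 cells entered each Tn5 reaction. All groups came from the same immortalised line, and the labels give no genetic change between them. The other 4 libraries, BV2 cells grown alone at the same 2 oxygen levels, served as a separate set of libraries that the choice of regions did not use.

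Peaks of the 4 co-culture lists on chromosomes 1 to 19 and X were merged wherever they overlapped, which gave 35661 regions, against 40770 from all 8 lists and 31279 from the 4 monoculture lists. A region was called gained when both hypoxic lists and neither normoxic list had a peak in it, and lost in the reverse case. Regions with a peak in all 4 lists are called shared. At these, the rank of the peak was compared between oxygen levels.

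ATAC-seq reads open chromatin, since the Tn5 transposase inserts adapters where DNA is not covered by nucleosomes, and most strong peaks are gene starts and enhancers. In low oxygen, the prolyl hydroxylases that mark HIF-alpha proteins for destruction lose activity. HIF then binds DNA at sites with the core RCGTG, where R is A or G. It turns on genes of glycolysis, glucose uptake and blood vessel growth. Only the form ACGTG was searched here. In gliomas, microglia and macrophages gather in and around poorly oxygenated areas, and their enhancers are held open by factors such as PU.1.

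The sequences below show starts whose regions carry the main patterns. They are windows from 250 bases before to 50 bases after the start, taken from RefSeq (GRCm38.p6), each written 5′ to 3′ on the strand of its gene. Capitals mark matches on either strand to the hypoxia response core (ACGTG), the NF-Y box (CCAAT), the SP box (GGGCGG) or the PU.1 motif (GAGGAAGT). The GCGTG form of the hypoxia response core was neither counted nor marked. Pdk1 (chr2:71872974-71873273, plus strand), Atf4 (chr15:80254934-80255233, plus strand) and Aldoc (chr11:78322823-78323122, plus strand) lie in shared regions that ranked higher in hypoxia. The window of Ap3d1 (chr10:80742226-80742525, minus strand) is in a gained region, that of Ccl12 (chr11:82101595-82101894, plus strand) in a shared region that ranked lower, and that of Cd33 (chr7:43533122-43533421, minus strand) in a lost region. The Pdk1 window held 2 SP boxes, Atf4 and Ap3d1 2 NF-Y boxes each, Aldoc 1 hypoxia response core and 1 SP box, Cd33 1 NF-Y box, and Ccl12 none of the 4 motifs.
Pdk1: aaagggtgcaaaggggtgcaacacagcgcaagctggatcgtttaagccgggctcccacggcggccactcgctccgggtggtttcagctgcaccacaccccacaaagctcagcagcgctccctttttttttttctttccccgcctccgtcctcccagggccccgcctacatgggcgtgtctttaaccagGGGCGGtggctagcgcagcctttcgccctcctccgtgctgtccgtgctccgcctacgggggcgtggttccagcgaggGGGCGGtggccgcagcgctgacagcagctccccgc
Atf4: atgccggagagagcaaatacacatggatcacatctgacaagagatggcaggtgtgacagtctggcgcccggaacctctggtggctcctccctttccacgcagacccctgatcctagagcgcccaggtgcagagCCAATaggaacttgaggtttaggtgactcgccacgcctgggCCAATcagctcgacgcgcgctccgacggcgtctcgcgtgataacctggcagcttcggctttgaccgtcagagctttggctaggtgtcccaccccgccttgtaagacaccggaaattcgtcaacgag
Aldoc: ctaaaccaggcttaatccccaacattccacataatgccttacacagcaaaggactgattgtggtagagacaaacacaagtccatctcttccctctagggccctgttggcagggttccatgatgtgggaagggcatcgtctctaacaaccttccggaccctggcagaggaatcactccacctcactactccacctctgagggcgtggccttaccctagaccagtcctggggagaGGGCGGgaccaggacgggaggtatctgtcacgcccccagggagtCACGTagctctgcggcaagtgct
Ap3d1: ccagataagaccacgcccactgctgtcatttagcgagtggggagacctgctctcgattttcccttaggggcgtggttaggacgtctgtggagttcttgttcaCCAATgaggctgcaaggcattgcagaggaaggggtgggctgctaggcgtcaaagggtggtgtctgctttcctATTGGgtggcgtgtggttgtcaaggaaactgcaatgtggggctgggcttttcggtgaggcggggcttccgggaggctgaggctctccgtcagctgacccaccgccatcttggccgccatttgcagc
Ccl12: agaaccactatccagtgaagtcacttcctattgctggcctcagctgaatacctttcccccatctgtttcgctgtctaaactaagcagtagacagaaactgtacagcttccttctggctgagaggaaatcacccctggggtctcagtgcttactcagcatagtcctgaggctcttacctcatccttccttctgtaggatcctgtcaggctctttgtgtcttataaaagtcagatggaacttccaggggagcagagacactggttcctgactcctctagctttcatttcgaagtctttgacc
Cd33: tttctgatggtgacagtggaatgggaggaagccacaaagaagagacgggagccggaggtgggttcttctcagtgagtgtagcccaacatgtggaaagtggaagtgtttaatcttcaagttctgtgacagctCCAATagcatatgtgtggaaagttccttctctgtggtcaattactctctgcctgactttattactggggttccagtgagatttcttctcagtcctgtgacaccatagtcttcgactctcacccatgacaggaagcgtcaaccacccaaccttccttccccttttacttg

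The normoxic lists held 21780 and 21816 peaks and the hypoxic lists 29647 and 21625. The mean of hypoxia exceeded that of normoxia by 3838 peaks, and the groups overlapped (two-sided exact permutation test, p = 1; 2 libraries against 2 cannot give less than 0.333). Without hypoxic replicate 1 the difference was −173 peaks, so its sign rested on that library. Of the peaks, 34.6% and 36.3% were at most 1 kb from a protein-coding gene's end in normoxia, against 29.5% and 36.7% in hypoxia (exact permutation test, p = 1). A gene's end here is either boundary of its span, so gene starts count as ends. Read totals were not used here. The background coverage estimated from the lists was 1.07 and 1.38 fragments per position in normoxia and 1.42 and 1.17 in hypoxia, and the median peak had 24 to 30 fragments at its summit. In such bulk libraries a weaker peak in all cells and a peak in fewer cells cannot be told apart.

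The markers of the sorted cells were present. Of 20 genes of microglial and macrophage identity, 18, 18, 18 and 15 had a peak within 10 kb in normoxic replicates 1 and 2 and hypoxic replicates 1 and 2, and Sall1 had none in any of the 4. Genes of glioma and glial cells had peaks as well, 9 and 4 of 18 in normoxia and 9 and 7 in hypoxia, against 1 and 1 in normoxic and 2 and 2 in hypoxic monoculture. Among them, Sox2 had a peak inside the gene in normoxic replicate 1 and both hypoxic replicates, and Pax6 and Nfia had one in all 4 co-culture lists. Nfia also had one in all 4 monoculture lists. Sox9, Olig2, Zic1, Egfr, Fabp7 and Ptprz1 had none within 10 kb. Of 16 mesenchymal genes, 7 and 6 had a peak within 10 kb in normoxia and 10 and 8 in hypoxia, against 2 and 1 in normoxic and 7 and 8 in hypoxic monoculture. The part of cells other than BV2 in the regions below was not tested.

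More regions were gained than lost. Of the 35661 regions, 2498 (7.0%) were gained and 843 (2.36%) were lost, 13620 (38.2%) were shared by all 4 lists, and 2799 more had a peak in both hypoxic lists and 1 normoxic list, against 2102 in both normoxic lists and 1 hypoxic list. Another 11088 regions had a peak in a single list, of which 6000 were in hypoxic replicate 1. These are counts with no test. Gains were 74.8% of gained and lost regions together, and 54.0% when each list was limited to the same number of its strongest peaks (1755 gained and 1494 lost). Leaving out a library loosens the definition. Gains were then 4007 and 3822 without normoxic replicate 1 or 2 and 3956 and 8560 without hypoxic replicate 1 or 2, and losses were 3021, 2483, 2648 and 1171 in the same order.

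Gained and lost regions were mostly of low rank and less often near gene ends than shared ones. The median percentile of a gained region, its rank by −log10 p within its own list, was 40.9 in hypoxic replicate 1 and 30.7 in hypoxic replicate 2, and that of a lost region was 27.9 and 28.2 in the normoxic replicates. Only 77 gained (3.08%) and 6 lost regions (0.712%) reached percentile 75 in both of their lists. Of gained regions 16.7% and of lost regions 17.6% were at most 1 kb from the end of a protein-coding gene, against 27.1% of all regions and 47.0% of shared ones. Within 10 kb of a gene end lay 40.3% of gained, 44.5% of lost and 48.3% of all regions, and a region far from gene ends can lie inside a gene. A peak had to pass the threshold of its list, and the weakest peaks of the 4 lists had a −log10 q of 2.02 to 2.08, so a region with no peak in a list fell short of that threshold and was not shown to be closed.

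The strongest gains held many fragments in hypoxia and passed no threshold in normoxia. Gained regions were ordered by the lower of their 2 hypoxic percentiles, and by that order the first 2 lay in Wnt6, which encodes a secreted Wnt ligand, and at the start of Ap3d1, a subunit of the AP-3 adaptor that sorts cargo to lysosomes. The Ap3d1 region (chr10:80742209-80742836) stood at percentiles 94.4 and 96.3 in the 2 hypoxic lists, with 96 and 112 fragments at the summit. The start of Inpp5k, an inositol phosphatase gene (chr11:75630551-75631169), stood at 95.4 and 94.0, and the start of Gng7, a G protein gamma subunit gene (chr10:81014881-81015313), at 93.7 and 95.5. In monoculture, the regions of Inpp5k and Gng7 had a peak in both hypoxic and neither normoxic list, that of Ap3d1 in normoxic replicate 1 and hypoxic replicate 2, and that of Wnt6 in normoxic replicate 1 and both hypoxic lists. The other regions among the first 12 overlapped Gatad2b, Cab39, Adamtsl5, Gpn1 and the non-coding Gm31852 or lay 242 bp from Rnf26 or nearest to Gfra2 and Camk1g, all at percentiles of at least 88.9. Of the 12, 7 had a peak in both hypoxic and neither normoxic monoculture list, as had 18.0% of all 35661 regions (3.94% in equal-number lists); the normoxic monoculture lists are much shorter than the hypoxic ones.

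Further gains at gene starts followed at lower ranks. Dmwd (chr7:19075938-19076372) stood at percentiles 87.6 and 87.4, Nabp2, which encodes a single-stranded DNA binding protein (chr10:128409755-128410298), at 85.6 and 89.1, and Plekho2 (chr9:65580015-65580519) at 85.3 and 88.0. The regions of Dmwd and Plekho2 had no peak in any monoculture list.

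**Figure D1:**
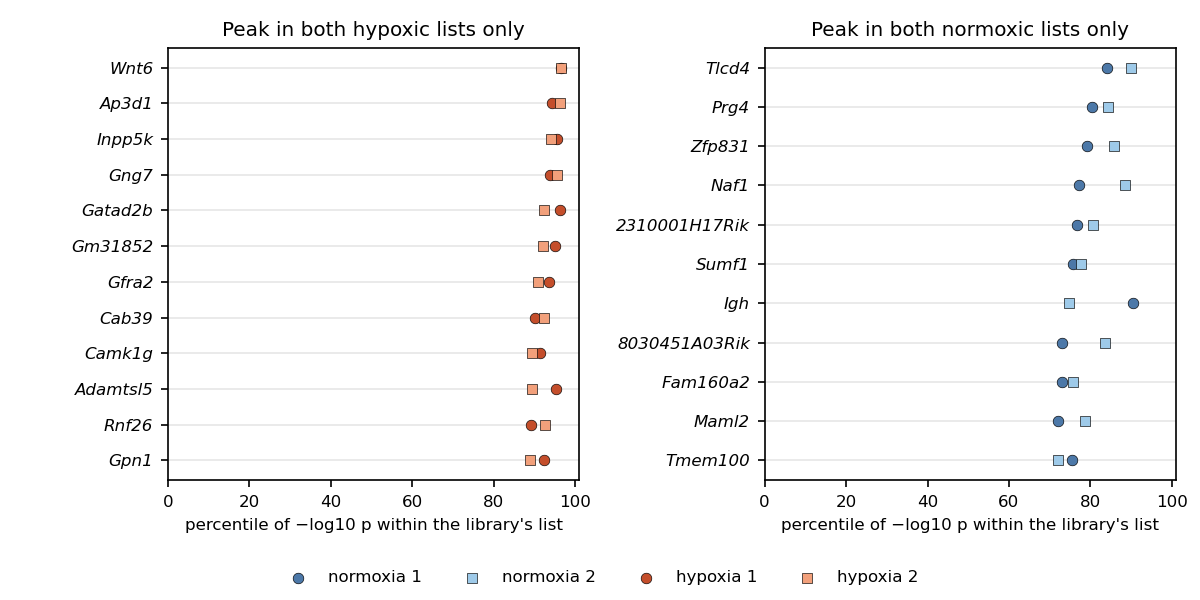
Percentile of −log10 p within each library's own list (x axis) for the 12 gained regions (left) and 12 lost regions (right) with the highest lower value of their 2 lists, named by the gene they overlap or the nearest gene; 1 lost region is not shown. The gained regions sit at 88.9 or above in both hypoxic lists, and the lost regions at 71.9 or above in both normoxic lists; a library with no peak in a region has no point.

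The strongest losses ranked lower than the strongest gains. The first was inside Tlcd4 (chr3:121242841-121243422), at percentiles 84.1 and 89.9 in the normoxic lists with 40 and 56 fragments, and the next lay nearest to Prg4, inside Zfp831 and inside Naf1, which encodes an assembly factor of H/ACA ribonucleoproteins. In monoculture, the region near Tmem100 (75.4 and 71.9) had a peak in both normoxic and neither hypoxic list, while those in Tlcd4 and Maml2 had one in both hypoxic and neither normoxic list. Of the 12 strongest losses, 2 were gained and 2 lost in monoculture, against 18.0% and 0.171% of all regions. Among losses at gene starts were Ptbp2, a splicing regulator (69.6 and 87.4), Cd33, a sialic acid receptor of myeloid cells (64.2 and 59.6), and Riox2, a ribosomal oxygenase (52.9 and 70.0).

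The 13620 shared regions were ranked by −log10 p within each list and the ranks turned into normal scores, on which 1 unit is 1 SD of the list. Each list then has the same centre, so that rises and falls balance by construction. Replicates ranked them more alike (Spearman 0.839 for normoxia and 0.861 for hypoxia, across regions) than lists of different oxygen level (0.683 to 0.735). With limma, 941 regions (6.91%) ranked higher and 864 (6.34%) lower in hypoxia at an adjusted p under 0.05, and 3804 had an unadjusted p under 0.05. On simulated scores the same fit made more false calls than its adjusted p allows, so these counts are likely to hold more than the nominal share of false calls. In 3714 regions (27.3%) both hypoxic scores lay above both normoxic ones, and in 3927 (28.8%) below them. The calls depend on letting the spread vary with the level of the score. With 1 common prior spread limma called 0 in either direction (3248 at an unadjusted p under 0.05, smallest adjusted p 0.101), and with ranks of the fold enrichment it called 0 as well (1986 at an unadjusted p under 0.05, smallest adjusted p 0.133).

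Leaving out 1 library changed the number of calls. Without hypoxic replicate 1 limma called 415 higher and 500 lower, without hypoxic replicate 2 it called 292 and 399, without normoxic replicate 1 it called 951 and 620, and without normoxic replicate 2 it called 769 and 441. Percentiles of whole lists, which do not have that common centre, gave 959 and 474. Of 55 called regions taken by the naming rule or from the gene lists below, 19 kept the call in each of the 4 fits without 1 library, and 2 kept it in none of them.

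Regions that ranked higher were mostly at gene ends, starts included. At most 1 kb from either end of a protein-coding gene were 67.5% of the higher regions and 53.4% of the lower ones. Of the shared regions that were not called, 44.9% lay that near. Within 1 kb of a RefSeq start site of any gene were 65.0% of higher, 50.9% of lower and 42.5% of uncalled shared regions. Of the 6397 shared regions near a gene end, 635 (9.93%) ranked higher and 461 (7.21%) lower. Of the 5011 regions over 10 kb away, 177 (3.53%) ranked higher and 281 (5.61%) lower. The higher regions moved from a median percentile of 63.3 and 62.3 in the normoxic lists to 92.7 and 91.0 in the hypoxic ones, and the lower regions from 90.0 and 91.0 to 71.2 and 62.4.

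**Figure D2:**
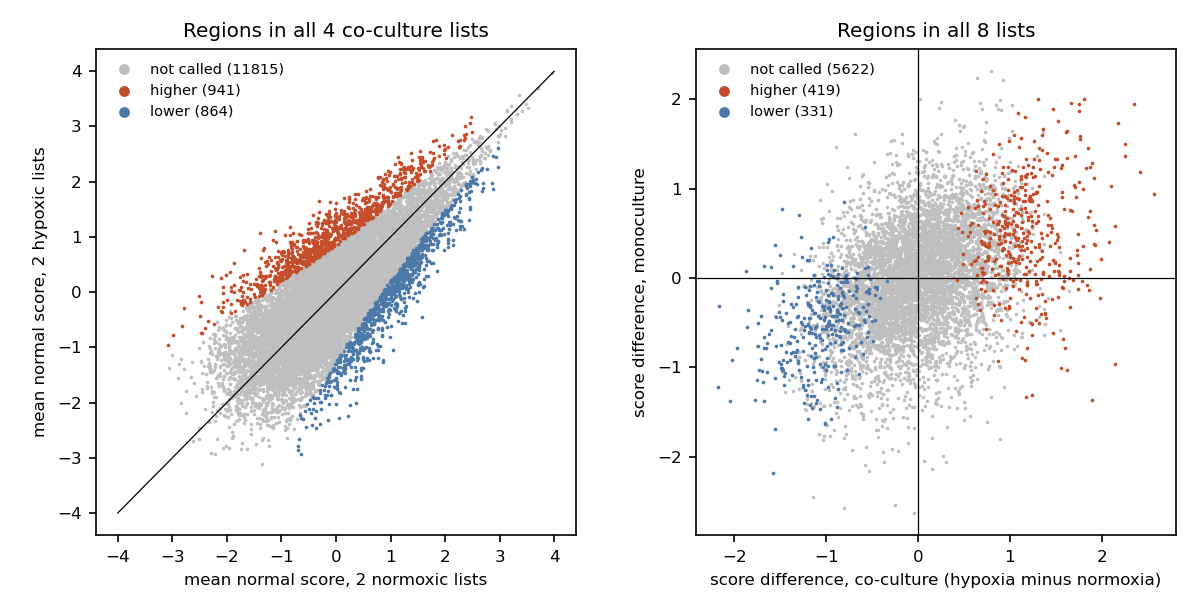
Left, mean normal score of the 13620 shared regions in the 2 normoxic lists (x axis) and the 2 hypoxic lists (y axis), with the line of equal scores; red marks the 941 regions called higher, blue the 864 called lower and grey the rest. Right, hypoxia minus normoxia score difference in co-culture (x axis) and in monoculture (y axis) for the 6372 regions with a peak in all 8 lists, coloured by their call in co-culture: 81.6% of the red points lie above 0 on the y axis and 88.5% of the blue points below it.

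Among shared regions whose groups do not overlap, the largest rise on the normal-score scale was at the start of Acap2, which encodes a GTPase-activating protein of the endosome (chr16:31200765-31201529). It stood at percentiles 1.65 and 22.1 in normoxia and 78.1 and 75.5 in hypoxia (score difference 2.56 ± 0.52 SE, limma adjusted p = 0.00101). A region in Kcnn1, a calcium-activated potassium channel gene, went from 30.3 and 16.3 to 90.0 and 94.1 (2.46 ± 0.38, adjusted p = 7.62e-05). The region inside Mast3, a kinase gene, went from 29.1 and 8.80 to 94.6 and 74.8, and one 700 bp from Ormdl3, a regulator of sphingolipid synthesis, from 2.05 and 25.1 to 70.7 and 80.5. The choice of these regions required that the groups not overlap. Of these 4, all but Ormdl3 kept the call without any 1 library. Also among the first 8 were regions inside Tnfrsf22 and nearest to Klf3 and Ypel2, with score differences from 2.40 to 2.49. The call nearest to Klf3 was lost without hypoxic replicate 1, and that nearest to Ypel2 without hypoxic replicate 2.

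Among such regions, the largest fall in score at a gene start was at Ccl12, which encodes a chemokine that draws monocytes. The region (chr11:82101199-82102084) stood at percentiles 81.5 and 70.8 in normoxia and 10.0 and 11.2 in hypoxia (score difference −2.37 ± 0.46 SE, limma adjusted p = 0.000715), a call kept without any 1 library, and it had a peak in all 4 monoculture lists. A region inside Fbxl17, a ubiquitin ligase subunit gene, fell from 69.0 and 75.9 to 4.15 and 11.6 (−2.46 ± 0.49, adjusted p = 0.000939). The start of Sec24b, a coat protein of vesicles leaving the endoplasmic reticulum, went from 51.1 and 81.1 to 1.2 and 24.5 but lost its call without normoxic replicate 2 or hypoxic replicate 1. Herc3, Pias2, Slc25a53, a region 158737 bp from Gsdmc and one at Gm30628 made up the rest of the first 8. Their score differences ran from −2.14 to −2.31. The Gsdmc call was kept in 3 and the Gm30628 call in 2 of the 4 fits without 1 library.

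**Figure D3:**
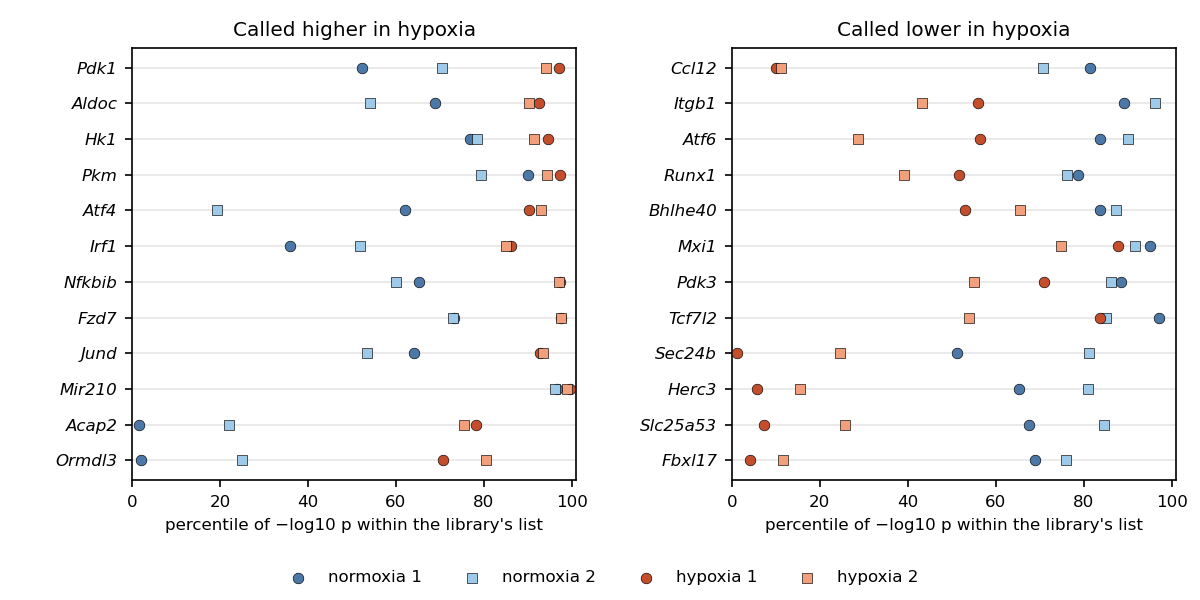
Percentile of −log10 p within each library's own list (x axis) for shared regions at named genes, called higher (left) or lower (right) in hypoxia by limma; the regions were picked from those named in the text. The groups of the regions chosen by size of difference had to be apart. Hypoxic points are red and normoxic points blue. At Ccl12, for example, they stand at 10.0 and 11.2 against 81.5 and 70.8, and at Pdk1 at 97.0 and 94.1 against 52.3 and 70.6.

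Genes were then read by lists of function, counting a gene when a region of the class lay within 10 kb of it. Among 14904 protein-coding genes with any region that near, 2081 (14.0%) had a gained one, 724 (4.86%) a lost one, 1419 (9.52%) a higher one and 941 (6.31%) a lower one. Windows of this size can hold the start of a neighbouring gene, and only some such neighbours are named. The region counted for Tap1 also covers the start of Psmb9, and that of Blvrb overlaps Sptbn4. The gained regions counted for Ero1a, Cxcl10 and Cxcl16 lie in Gpr137c, in Art3 and nearest to Zmynd15. In equal-number lists the gained regions of Atf6, Bcl3, Ddit4, Fosb, Fosl1, Hspa5, Mmp9 and Pfkfb3 were no longer gained, nor were those of Ero1a, Soat1, Stat2 and Tead1 at a −log10 q of at least 5. The median score difference of all shared regions was −0.02. List genes with a higher or lower region are named after their values were seen. Of the calls given below without their own statistics, that at Blvrb was kept in 1, those at Nfia, Cxcl16, Fabp5 and Mxi1 in 2 and those at Kdm4b, Soat1, Aif1 and Trib3 in 3 of the 4 fits without a library.

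Of 15 glycolytic enzyme genes, 4 had a higher region (Hk1, Aldoc, Pkm and Ldha), none a lower one, 3 a gained one (Pfkp, Gapdh, Ldha) and 2 a lost one (Tpi1, Gapdh), and the median score difference of their 27 shared regions was 0.44. The start of Aldoc, an aldolase, stood at percentiles 69.0 and 54.1 in normoxia and 92.6 and 90.3 in hypoxia (1.16 ± 0.30 SE, limma adjusted p = 0.00801). The start of Hk1, the first enzyme of the pathway, went from 76.9 and 78.4 to 94.6 and 91.4 (0.74 ± 0.26, adjusted p = 0.0463), and that of Pkm, the last, from 90.1 and 79.4 to 97.2 and 94.4 (0.71 ± 0.23, adjusted p = 0.0365). For Ldha, which turns pyruvate into lactate, the higher region lay 2633 bp outside the gene (55.0 and 44.5 against 86.5 and 81.9), and the region at its own start had a peak in 3 lists at percentiles of 6.96 to 22.3. The call at Aldoc was lost without either hypoxic library, at Hk1 without any 1 library, and at Pkm and Ldha in 3 of the 4 such fits. With fold enrichment ranked in place of −log10 p, the Pkm difference was −0.016. The lost region of Tpi1 lay at its start (32.0 and 30.6 in normoxia). Gapdh held a gained region at its start (58.5 and 61.7) and next to it a lost one inside the gene (25.7 and 54.8).

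Pdk1, a kinase that inhibits pyruvate dehydrogenase, gave the larger of the 2 calls among the glucose switches. Its start region (chr2:71872665-71873561) stood at percentiles 52.3 and 70.6 in normoxia and 97.0 and 94.1 in hypoxia (1.55 ± 0.28 SE, limma adjusted p = 0.000304), kept the call without any 1 library, and had a peak in both hypoxic and neither normoxic monoculture list. Its paralogue Pdk3 went the other way, from 88.5 and 86.3 to 70.9 and 55.1 (−1.0 ± 0.30, adjusted p = 0.0241), a call kept in 1 of the 4 fits without a library. Of the 10 genes of glucose and lactate transport and glycolytic switches, Slc2a1, the main glucose transporter, and Pfkfb3 had a gained region (Slc2a1 at 62.2 and 48.7, in the non-coding Gm52706 and 2661 bp from its start). The region at the start of Slc2a1 was 82.5 and 80.8 in normoxia and 88.3 and 88.2 in hypoxia (0.24 ± 0.27, adjusted p = 0.601), and its difference was −0.20 with fold enrichment ranked.

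Of 12 genes of the HIF pathway and the oxygen-sensing hydroxylases, 1 (Egln1) had a gained region and none a lost, higher or lower one. Of 16 secreted and stress targets, Angptl4, Ero1a and Ddit4 had a gained, Ankrd37 a lost (inside Ufsp2), and Mxi1 and Bhlhe40 a lower region. Bhlhe40 is a transcriptional repressor that HIF induces, and its region went from 83.7 and 87.4 to 53.1 and 65.6 (−1.03 ± 0.32 SE, limma adjusted p = 0.0299), a call kept in 1 of the 4 fits without a library. At Vegfa, the growth factor of blood vessels, a region at the start had a peak in normoxic replicate 1 (19.5) and both hypoxic lists (47.0 and 54.1). The start of Bnip3, a mitophagy receptor, was near the top of all lists (98.6 and 99.3 against 98.0 and 98.3, adjusted p = 0.194). A region 254 bp from Adm, which encodes adrenomedullin, went from 5.26 and 20.3 to 70.2 and 35.2 and did not pass the test (1.5 ± 0.53, adjusted p = 0.0516).

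The microRNA gene Mir210, whose product is the best known hypoxia-induced microRNA, lay 201 bp from a higher region (chr7:141221694-141222370). That region stood at percentiles 96.7 and 96.2 in normoxia and 99.6 and 98.9 in hypoxia (0.66 ± 0.16 SE, limma adjusted p = 0.0064), a call lost without hypoxic replicate 1, and all 4 monoculture lists had a peak there. Of 124 microRNA hairpins with a region within 1 kb, 11 had a higher, 2 a lower, 7 a gained and 1 (Mirlet7i) a lost one. These are 8.87%, 1.61%, 5.65% and 0.806%, against 7.39%, 5.89%, 10.9% and 4.05% of the 13048 protein-coding genes with a region as near, which span more sequence than a hairpin. Mir210 and Mirlet7i were picked after these values were seen. The 2 mature products of Mir210 are given from RefSeq, 5′ to 3′, with the seed (bases 2 to 8) in capitals.
miR-210-3p: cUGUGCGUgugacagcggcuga
miR-210-5p: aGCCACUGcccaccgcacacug

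Of 14 genes of the unfolded protein and integrated stress responses, 5 had a gained region (Atf4, Atf6, Ern1, Eif2ak3, Hspa5), though the one beside Atf4 covers the start of Rps19bp1 and the one by Hspa5 lies in Rabepk. Atf4 is the transcription factor of the integrated stress response. Its own start region (chr15:80254574-80256010) stood at 62.1 and 19.2 in normoxia and 90.2 and 92.9 in hypoxia (1.87 ± 0.37 SE, limma adjusted p = 0.000942). Atf6, a sensor of unfolded proteins, had a region inside the gene that went from 83.8 and 90.2 to 56.5 and 28.7 (−1.62 ± 0.35, adjusted p = 0.00189). Both calls were kept without any 1 library. Trib3, the other gene of the list with a higher region, had it 5664 bp away in the non-coding Gm14164. Among 14 histone lysine demethylases, oxygen-dependent enzymes that remove methyl groups from histones, Kdm6b (77.9 and 90.2) and Kdm3b (60.5 and 57.8) had a gained region, and Kdm4b a higher and a lost one (12.9 and 7.34). The latter was no longer lost at a −log10 q of at least 5.

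Of 12 NF-kappaB genes, Relb and Nfkbib had a higher region, none a lower one, Tnfaip3 and Bcl3 a gained and Nfkb1 a lost one. The region at the start of Nfkbib, an inhibitor of NF-kappaB, which also overlaps Sirt2 (chr7:28766281-28766856), went from 65.3 and 60.0 to 97.3 and 97.2 (1.74 ± 0.26 SE, limma adjusted p = 7.04e-05) and kept the call without any 1 library. Of 20 interferon and antigen presentation genes, Irf1, Irf3, Tap1 and Tapbp had a higher region, none a lower one, and Stat2 a gained one beside Il23a, with a median score difference of 0.44 over 20 shared regions. The start of Irf1, a transcription factor of interferon responses, went from 35.9 and 51.8 to 86.1 and 85.0 (1.32 ± 0.35, adjusted p = 0.0103), a call lost without either hypoxic library. Relb and Tap1 kept their calls in 2 and Irf3 and Tapbp in 1 of the 4 fits without a library. The Tapbp region lies over Daxx and the Irf3 region is shared with Bcl2l12.

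Of 12 AP-1 genes, Jund had a higher region (64.2 and 53.5 against 92.7 and 93.5; 1.37 ± 0.29 SE, limma adjusted p = 0.00173; the call was lost without hypoxic replicate 2) and Junb, Fosb and Fosl1 a gained one. The gained region of Junb lay 938 bp from the gene (70.7 and 54.4), and those counted for Fosb and Fosl1 lie over the non-coding Gm26802 and over Fibp. Of 19 cytokine and chemokine genes, 5 had a gained region (Il10, Ptgs2, Cxcl10, Cxcl16, Cxcr4), none a lost one, and Cxcl16 a higher one that covers the start of Med11. The gained region 853 bp from Il10, an anti-inflammatory cytokine, stood at 32.8 and 68.8. Nos2 had no region.

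Of the 20 identity genes, 3 that mark resting microglia had a lost region. They were P2ry12, the purine receptor of surveying microglia (81.1 and 51.9, a region that also overlaps Med12l), Tmem119 (38.7 and 21.0) and Cx3cr1, the fractalkine receptor (1.67 and 37.9). The lost region of Cx3cr1 was no longer lost at a −log10 q of at least 5. Another region inside Cx3cr1 had no peak and 47.3 in normoxia against 82.6 and 57.4 in hypoxia, and the shared region 4729 bp from the gene did not pass the test (−0.03 ± 0.45 SE, limma adjusted p = 0.979). The P2ry12 region had a peak in all 4 monoculture lists, and the median score difference of the 24 shared regions of the list was −0.08. Spi1, which encodes PU.1, had a region inside the gene in 3 lists (38.6 and 17.1 in normoxia, 10.3 in hypoxic replicate 1). The region of Csf1r, the receptor on which microglia depend, did not pass the test (53.5 and 60.7 against 78.6 and 31.6; −0.09 ± 0.41 SE, limma adjusted p = 0.914). Ptprc had a gained region inside the gene (78.5 and 65.8), while the region at its start did not pass the test (67.5 and 63.6 against 66.8 and 49.0; −0.30 ± 0.37 SE, limma adjusted p = 0.64). Mertk, a receptor for dying cells, ranked higher at its start (24.6 and 33.7 against 83.4 and 69.2; 1.42 ± 0.40, adjusted p = 0.0164), a call lost without either hypoxic library. The higher regions counted for Cd68, Fcer1g and Aif1 lie over Eif4a1, over Tomm40l and Apoa2, and over Prrc2a. A region inside Runx1, a myeloid transcription factor, ranked lower (78.7 and 76.3 against 51.7 and 39.1; −1.08 ± 0.36, adjusted p = 0.0427) and lost the call without any 1 library. Among glioma and glial genes, Nfia had a gained and a lower region, and the lower one had a peak in all 4 monoculture lists. Among the 16 mesenchymal genes, Fn1 (44.8 and 30.9), Col6a1 (45.6 and 41.0) and Tead1 (36.2 and 8.37) had a gained region with no peak in any monoculture list, and none had a lost, higher or lower one.

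Itgb1, the beta chain shared by many integrins, fell at its start (chr8:128685161-128686334) from 89.2 and 96.3 to 55.9 and 43.4 (−1.81 ± 0.31 SE, limma adjusted p = 0.000213), a call kept without any 1 library. Of the 16 genes of that list, 5 had a gained region (Tgfbr2, Smad3, Mmp9, Gpnmb, Cd44), 1 a lost one (Tgfbr2), 2 a higher one (Tgfb1, Timp2) and 1 a lower one (Itgb1), and the median difference of its 21 shared regions was −0.29. The calls at Tgfb1 and Timp2 were each kept in 1 of the 4 fits without a library. The Tgfb1 region lies over the start of B9d2 and the Mmp9 region over that of Slc12a5.

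Of 16 Wnt pathway genes, 5 had a gained region (Wnt6, Wnt7b, Axin1, Tcf7l1, Gsk3b), 1 a lost one (Axin2, a target and brake of the pathway), 3 a higher one (Fzd7, Lrp5, Axin1) and 1 a lower one (Tcf7l2). The start of the receptor gene Fzd7 (chr1:59481448-59482483) went from 73.1 and 73.0 to 97.4 and 97.6 (1.45 ± 0.24 SE, limma adjusted p = 0.00014) and kept the call without any 1 library. The calls at Lrp5 and Tcf7l2 were each kept in 2 of the 4 such fits, and the Lrp5 difference was −0.033 with fold enrichment ranked. The regions counted for Lrp5 and Gsk3b lie over Ppp6r3 and Nr1i2.

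In lipid handling, Cd36, a scavenger receptor for fatty acids (69.3 and 59.0), Hilpda (inside Fam71f2) and Soat1 had a gained region among 14 genes, Soat1 also a higher and Fabp5 a lower one. Of 12 iron and heme genes, Ftl1, the ferritin light chain, had a gained region at its start (68.8 and 69.6), Slc11a2 another gained one and Blvrb a higher one. Of 13 autophagy genes, Sqstm1 and Atg5 had a gained region, and of 16 respiratory chain genes only Ndufs1 had any call, a lost region 4041 bp away beside Eef1b2.

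The monoculture libraries gave an independent reading of the same regions. Of the 2498 regions gained in co-culture, 8.09% and 3.56% had a peak in the normoxic and 53.1% and 55.8% in the hypoxic monoculture lists, so the hypoxic shares lay above the normoxic ones. In monoculture, 856 of them were gained as well (34.3%, against 18.0% of all 35661 regions) and none was lost (against 0.171%). Of the 843 regions lost in co-culture, 25.5% and 13.5% had a peak in normoxic and 37.4% and 47.3% in hypoxic monoculture, 114 were gained (13.5%) and 8 lost (0.949%). The normoxic monoculture lists are much shorter than the others. In monoculture lists of equal number, 198 of the gained regions were gained (7.93%, against 3.94% of all) and 2 lost. Of the lost regions, 11 were gained and 28 lost there (3.32%, against 2.91% of all). In those lists 18.6% and 13.5% of the lost regions had a peak in normoxic and 6.88% and 9.13% in hypoxic monoculture, the reverse order. This comparison was chosen after the data were seen.

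**Figure D4:**
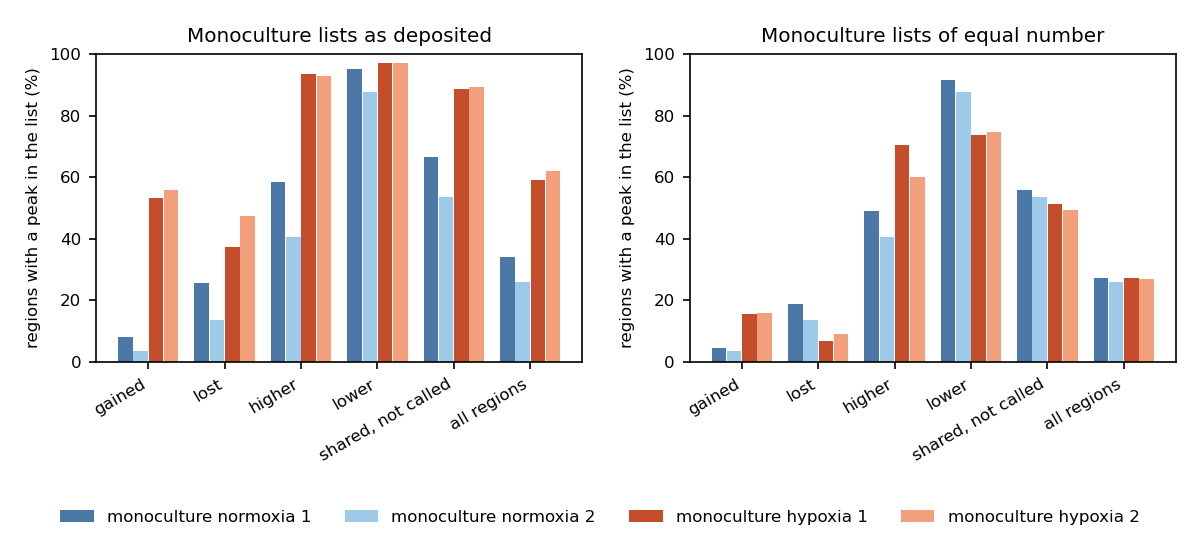
Share of each class of co-culture regions (x axis) with a peak in each of the 4 monoculture lists (y axis, percent), with the lists as deposited (left) and with each cut to the length of the shortest (right); blue bars are normoxic and red bars hypoxic libraries. For gained regions the hypoxic bars reach 53.1% and 55.8% on the left and 15.6% and 15.9% on the right, above the normoxic bars in both panels. For lost, lower and uncalled shared regions the hypoxic bars are above the normoxic ones on the left and below them on the right.

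Shared regions moved the same way in both cultures more often than not. In the 6372 regions with a peak in all 8 lists, limma called 419 higher (6.58%) and 331 lower (5.19%) in co-culture, and 87 higher (1.37%) and 74 lower (1.16%) in monoculture. Of the 419, 81.6% had a score difference above 0 in monoculture, 31 were called higher there and none lower. Of the 331, 88.5% were below 0, 30 were called lower and none higher, and of all 6372 regions 50.5% were above 0 and 49.5% below. Across these regions the differences in the 2 cultures had a Pearson correlation of 0.428, where regions are not independent replicates. The difference between the cultures was tested itself by the interaction term, and limma called 0 of 6372 regions (680 at an unadjusted p under 0.05, smallest adjusted p 0.0819). It called 174 without monoculture normoxic replicate 1, 29 without monoculture normoxic replicate 2 and 1 without co-culture hypoxic replicate 1.

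Promoter windows were searched for 12 motifs on both strands. Of 32619 windows from RefSeq on these chromosomes, 821 overlapped a higher, 628 a lower, 383 a gained and 130 a lost region, and 6661 a shared region that was not called. Median GC content was 62.7%, 60.3%, 59.0%, 62.2% and 61.7% in the same order, against 53.0% of all windows. The hypoxia response core ACGTG stood in 24.6% of higher, 30.3% of lower, 31.1% of gained, 29.2% of lost and 28.5% of uncalled shared windows, and in 19.8% of all windows. The ACGTG form was thus no more frequent at starts that ranked higher than at uncalled ones, and the GCGTG form was not searched.

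The SP box GGGCGG and the NF-Y box CCAAT were the motifs that stood out at higher starts. SP matched 79.7% of higher windows against 66.6% of uncalled shared and 35.9% of all windows, and NF-Y matched 58.8% against 40.5% and 37.6%. At lower starts the shares were 62.9% and 40.1%, at gained starts 60.1% and 35.8% and at lost starts 63.1% and 20.8%. The NF-Y motif was added after the data were seen. The PU.1 motif GAGGAAGT was in 13 of 130 lost windows (10.0%), 5.10% of lower, 2.09% of gained, 1.71% of higher and 3.53% of uncalled shared windows.

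AP-1 (TGANTCA) matched 2.80% of higher, 4.94% of lower, 8.09% of gained and 3.85% of lost windows, against 5.25% of uncalled shared and 7.85% of all windows. Searched as well were CTCF (CCANNAGGG), NF-kappaB (GGGANTTTC), interferon (GAAANNGAA), NRF1 (GCGCATGCG), CRE (TGACGTCA), TEAD (GGAATG) and RUNX (TGTGGT). Of these, TEAD matched 14.1% of gained, 10.6% of uncalled shared and 14.6% of all windows, and NF-kappaB 0.244% of higher (2 windows), 0.976% of uncalled shared and 1.12% of all windows. Matches of different motifs can overlap. A match is a run of letters and shows no binding.

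**Figure D5:**
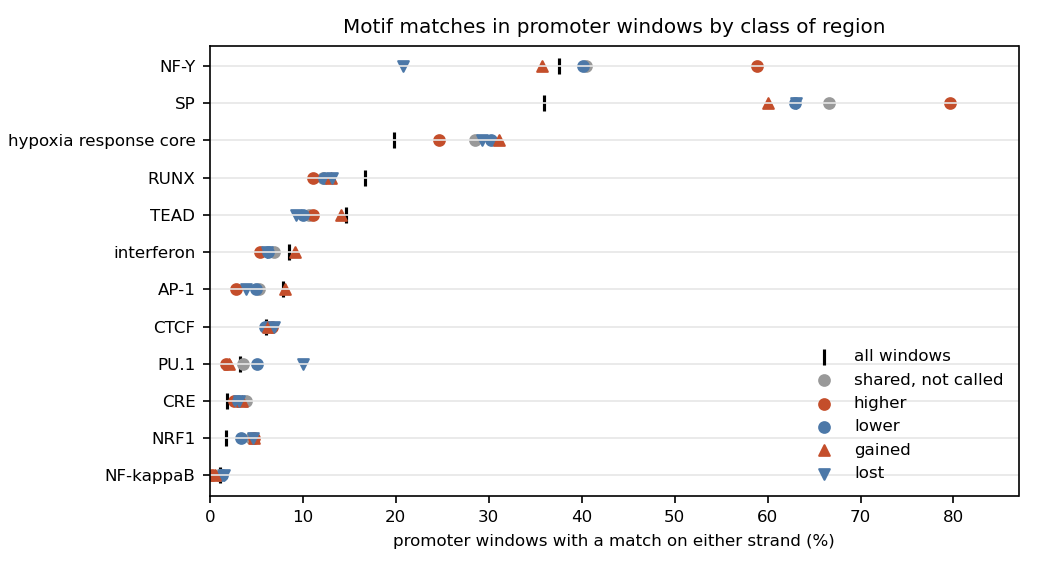
Share of promoter windows with at least 1 match on either strand (x axis, percent) for 12 motifs (y axis), by the class of the region the window overlaps; bars mark all 32619 windows. The points of higher windows (red circles) stand apart for the SP box (79.7%) and the NF-Y box (58.8%), and the point of lost windows (blue triangles) for PU.1 (10.0%) and for the NF-Y box (20.8%).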

How the data were processed

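Peaks were called separately in each library, and the authors deposited the resulting list for each. Its columns hold a score, the fold enrichment (a ratio), −log10 of the p-value and of the q-value, and the summit. Per the submitters' processing notes, Trimmomatic 0.36, HISAT2 2.1.0, Picard, SAMtools, deepTools and MACS2 2.1.1.2 were used with the mm10 assembly. Their settings, read filters and any shift for the Tn5 cut are not given in the sources used here and could move peak edges and numbers. The deposited fold, −log10 p and score are relative to the background of their own library and were used only within a list.

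Peaks on chromosomes 1 to 19 and X were merged at 1 bp of overlap. A percentile is the rank of a peak by −log10 p within its list. Shared regions were ranked in each list, turned into normal scores and compared with limma 3.58.1 (R 4.3.3) with a variance trend and Benjamini-Hochberg adjustment over all 13620 regions, at 0.05. A fit on simulated scores with known changes was checked first and made somewhat more false calls than the nominal rate. Single values per library were compared by exact permutation tests. Replicates are 2 biological replicates per the labels, so p-values rest on the spread of 2 libraries. Gene positions were those of RefSeq (GRCm38.p6), as gene spans only, so exons and introns were not told apart, and 285 genes in 19 lists were read within 10 kb. Promoter windows and microRNAs came from RefSeq of the same build. The other steps ran in Python 3.11.15 with pandas 2.3.3, numpy 2.4.6, matplotlib 3.10.9 and scipy 1.17.1.

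Coverage was estimated by solving fold and −log10 p for whole fragments, which matched the deposited −log10 p within 0.001 for 99.8% to 99.9% of peaks, leaving out those over 250.

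Named regions are the 12 gained and 12 lost with the highest lower percentile, the 8 shared with the largest difference in each direction among those whose groups do not overlap, 8 gained and 8 lost at starts of protein-coding genes, up to 4 genes a list and direction, and 12 preset genes. Of these, 4 regions are not reported here. The members and the lists were chosen with earlier results of these data known. Alternatives were equal-number lists, a −log10 q of at least 5, equal estimated coverage, other overlaps and windows, other rankings, a replicate block and leaving out each library.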

Additional observations from a re-analysis of the deposited data

How the results depend on the processing

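The number of gained regions ranged from 3822 to 8560 when each library was left out in turn, and that of lost regions from 1171 to 3021. Equal-number lists gave 1494 lost regions. At a −log10 q of at least 5, at equal estimated coverage, with a stricter overlap of peak and region, with windows of 250 bp around summits and without peaks wider than 10 kb, gains stayed between 2445 and 2701 and losses between 710 and 1087. Of 60 named gains, 52 were still gained in equal-number lists, as were all 32 named losses lost.

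Of shared regions, limma called 0 higher and 0 lower with no trend in the prior variance, and 0 and 0 with fold enrichment ranked. Percentiles within whole lists gave 474 lower. Leaving out each library gave 292 to 951 higher and 399 to 620 lower; the lone library is then assumed to vary like the other group. With a replicate block 1505 were called higher and 1401 lower, all 55 named calls were kept, and the interaction called 25. Same-numbered libraries share only a number per the labels, and their deviations correlated at 0.172. The block left the differences in peak number (3838) and in share near gene ends (−2.33) as they were. The interaction called 0 to 174 without 1 library.

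The difference in peak number ranged from −173 to 7849 and that in share from −5.93 to 1.27 percentage points without 1 library. With fold ranked, Lrp5 (−0.033), Pkm (−0.016) and Slc2a1 (−0.20) changed sign, and the cause was not tested. Within 50 kb, 4422 genes had a gained and 1529 a lost region. In equal-number monoculture lists, 198 gained regions were gained and 2 lost, and 11 lost regions were gained and 28 lost. With 1 promoter window per gene the SP and NF-Y boxes still had their highest share in higher windows (79.8% and 60.0%). Motifs around summits were not run, since no genome sequence was used here. Depth limits the lists to summits of at least 7 fragments.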

Other observations

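Chromosome X differed in its split from the rest of the shared regions. Of its 376 shared regions, 4 ranked higher (1.06%) and 35 lower (9.31%), with a median score difference of −0.20, against 6.91% and 6.34% of all shared regions. Pdk3 and Slc25a53 were among the lower ones. The region over the microRNA gene Mirlet7i was lost, with percentiles of 10.0 and 26.6 in normoxia, no peak in hypoxia and none in any monoculture list. Both patterns were picked after their values were seen.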
